A study of Mus musculus with 12 samples.

Results

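The HoxD cluster of the mouse is a row of homeobox genes on chromosome 2. Described here are its 9 Hox genes and the neighbouring Evx2, which are 10 of the 53465 genes in the deposited files. They were taken by symbol through their Ensembl identifiers and are ordered along the chromosome from Evx2 through Hoxd13 to Hoxd1. The rule that names them uses no measured value, but they were chosen with earlier results of these data known. In these forelimb buds the Hoxd13 end of the cluster (Hoxd11, Hoxd12 and Hoxd13) was lower where Hand2 had been deleted. In buds labelled as lacking Tbx3 no member passed the test over all 3 replicates. The 5 members from Hoxd13 to Hoxd9 were below all controls in each of the 3 libraries. In that comparison groups did not overlap for 20.4% of all genes tested. For Hoxd11, Hoxd12 and Hoxd13 the margin was smallest in replicate 1.

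Hox genes encode homeodomain transcription factors that give cells a position along an axis of the body. Their order on the chromosome follows the order in which they are switched on, a property called collinearity. In the limb bud, genes from Hoxd1 to the middle of the cluster come on early and broadly, whereas Hoxd11 to Hoxd13, the 5′ genes, come on later and toward the posterior margin. That margin is also the source of Sonic hedgehog (SHH), a secreted signal that limits production of the GLI3 repressor, and 5′ Hoxd genes are known both to act upstream of Shh and to depend on its signalling. HAND2 is a basic helix-loop-helix factor of the posterior mesenchyme that acts upstream of Shh, and TBX3 is a T-box factor found at the limb margins.

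Bulk RNA of forelimb buds was sequenced from Swiss albino embryos, 3 replicates a group, each replicate being 1 pair of buds. The group Tbx3_del carries the Tbx3ΔVenus allele on both copies, in which a Venus reporter with a transcription stop and a polyadenylation signal sits at the start codon. Its controls, Tbx3_WT, are wild type, and both groups were taken at E9.75 to E10 (28 to 31 somites). The group Hand2_del has the genotype Prrx1-Cre;Hand2Δ/Δc, and its controls, Hand2_WT, are Prrx1-Cre;Hand2+/+, so both of these carry the Cre driver and both were taken at E10 to E10.25 (31 to 33 somites). Prrx1-Cre is active in limb mesenchyme, so cells outside it can keep Hand2. The series was designed to find genes that TBX3 controls and that HAND2 controls as well. The sources used here give neither litters nor days of dissection, so the p-values measure the spread between these embryos.

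Libraries held 23.3 to 31.8 M (1e6) counts in the Tbx3 series and 60.2 to 68.6 M in the Hand2 series. Levels are given as CPM, counts scaled by TMM to 1e6 a library. Hand2 was at 0.185, 2.2 and 0.382 CPM in Hand2_del, against 119, 120 and 125 CPM in Hand2_WT. Tbx3 was at 80.7, 79.9 and 73.6 CPM in libraries labelled Tbx3_del, against 78.6, 78.0 and 79.2 CPM in Tbx3_WT, so the count of that gene does not separate the groups, and Tbx3_del is used below as the label gives it. From Xist and Y-linked genes, Tbx3_del held 1 female and 2 males and Tbx3_WT 3 females, while Hand2_del held 1 female and 2 males and Hand2_WT 2 females and 1 male. Hand2_del replicate 1 had 5.37% of its counts on 1 gene, against at most 1.01% in the other libraries. In each group all 10 markers of limb mesenchyme were detected, with summed levels of 1810 to 1990 CPM in Tbx3_del, 2050 to 2140 CPM in Tbx3_WT, 2260 to 2690 CPM in Hand2_del and 1900 to 2140 CPM in Hand2_WT. The sums did not overlap between mutants and controls, being lower in Tbx3_del and higher in Hand2_del.

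From the start of Evx2 to the end of Hoxd1 the members span 112.2 kb of chromosome 2 (GRCm38, 74652991 to 74765142, GENCODE M21). All are protein-coding. Evx2 lies on the minus strand and the 9 Hox genes on the plus strand. Reads of neighbours can be split between them: 62.35% of the exon bases of Hoxd3 and 52.31% of those of Hoxd4 are shared on the same strand with each other or with the overlapping gene Gm28230. The figure is 10.8% for Hoxd11 and 5.73% for Hoxd10, both shared with Gm28309, and 0 for the others. Hoxd3 and Hoxd4 are therefore uncertain as separate genes. Hoxd4 also shares 11.77% of its exon bases with an antisense gene (Hoxd3os1) and Hoxd3 8.78% (Hoxd3os1 and Haglr), and without a stated strand setting such reads cannot be told apart.

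Promoters are shown for Hoxd13, Hoxd12 and Hoxd11, whose levels fell, for Hoxd10, the next gene along, and for Hoxd9, the member with the highest level, which did not pass the test in either mutant. Each is the plus strand of chromosome 2 (RefSeq, GRCm38.p6) from 250 bases before to 50 bases after a start site. Capitals mark the core CANNTG, read alike on both strands, to which basic helix-loop-helix factors bind, and the T-box core GGTGTG on either strand. Hoxd13 is at chr2:74667975-74668274, Hoxd12 at chr2:74674763-74675062, Hoxd11 at chr2:74682073-74682372, Hoxd10 at chr2:74691641-74691940 and Hoxd9 at chr2:74697513-74697812.
Hoxd13: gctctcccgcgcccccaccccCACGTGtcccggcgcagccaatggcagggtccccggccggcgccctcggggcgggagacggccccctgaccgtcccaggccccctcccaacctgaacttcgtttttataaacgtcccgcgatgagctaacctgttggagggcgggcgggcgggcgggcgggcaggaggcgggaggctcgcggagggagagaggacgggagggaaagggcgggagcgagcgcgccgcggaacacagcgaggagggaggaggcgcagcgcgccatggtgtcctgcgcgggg
Hoxd12: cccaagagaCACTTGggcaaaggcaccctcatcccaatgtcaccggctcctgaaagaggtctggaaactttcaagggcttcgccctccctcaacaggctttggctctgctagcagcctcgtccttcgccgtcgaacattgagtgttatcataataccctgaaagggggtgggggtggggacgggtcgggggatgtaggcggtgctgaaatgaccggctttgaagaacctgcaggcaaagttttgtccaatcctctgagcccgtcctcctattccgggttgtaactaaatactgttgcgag
Hoxd11: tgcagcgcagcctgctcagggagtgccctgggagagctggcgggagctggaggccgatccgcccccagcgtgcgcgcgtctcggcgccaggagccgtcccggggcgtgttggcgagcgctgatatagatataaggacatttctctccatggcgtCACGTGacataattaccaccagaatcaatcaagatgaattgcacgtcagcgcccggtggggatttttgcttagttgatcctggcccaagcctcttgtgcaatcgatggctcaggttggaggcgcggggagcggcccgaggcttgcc
Hoxd10: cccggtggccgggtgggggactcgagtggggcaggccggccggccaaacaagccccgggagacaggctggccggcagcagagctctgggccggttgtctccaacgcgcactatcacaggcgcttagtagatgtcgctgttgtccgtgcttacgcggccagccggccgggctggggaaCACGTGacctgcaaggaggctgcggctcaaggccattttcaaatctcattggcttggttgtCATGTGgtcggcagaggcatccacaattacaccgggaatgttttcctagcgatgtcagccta
Hoxd9: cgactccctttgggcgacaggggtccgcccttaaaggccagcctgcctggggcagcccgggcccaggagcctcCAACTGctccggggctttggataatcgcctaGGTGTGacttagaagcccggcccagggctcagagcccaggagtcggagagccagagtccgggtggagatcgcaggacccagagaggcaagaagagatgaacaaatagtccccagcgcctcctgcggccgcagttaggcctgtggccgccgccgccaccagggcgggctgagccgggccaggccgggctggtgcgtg
The Hoxd13 window holds 1 CACGTG and has 74.3% G and C, above 95.6% of all promoters. The Hoxd12 window holds 1 CACTTG at 55.0% G and C. Hoxd11 has 2 RefSeq windows: the one printed holds 1 CACGTG at 62.0% G and C, and the one upstream, at chr2:74679308-74679607, holds no CANNTG at 45.7% G and C. The Hoxd10 window holds CACGTG and CATGTG. In the Hoxd9 window there is 1 CAACTG and the only GGTGTG of all member windows.

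Over the 11 member windows, which cover all 10 genes, 9 hold a CANNTG, while 72.3% of 32851 RefSeq promoters of the same length do. GGTGTG is in 1 of 11, and in 19.0% of all promoters. The palindrome CACGTG, singled out after the windows were read, is in 5 of 11 (Hoxd13, the downstream Hoxd11 start, Hoxd10, Hoxd4 and Hoxd1), and in 7.2% of all promoters. No marked core overlaps another. These counts describe letters in short windows.

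In wild-type buds the middle of the cluster gave the most RNA. Per kb of exon, Hoxd9, which acts with Hoxa9 in the upper limb, was the highest member in both wild-type groups, at 67.6 ± 11.2 CPM per kb in Hand2_WT and 98.2 ± 10.1 CPM per kb in Tbx3_WT (SD, n = 3 each). Hoxd10 came next, at 37.0 ± 3.58 CPM per kb in Hand2_WT and 48.0 ± 5.06 CPM per kb in Tbx3_WT. In both groups the ranges of Hoxd9 and Hoxd10 did not overlap.

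In the later Hand2_WT, Hoxd13 (22.8 CPM per kb), Hoxd8 (22.5) and Hoxd11 (21.2) followed with ranges that overlapped. Hoxd12 (8.0) and Hoxd4 (5.57) overlapped with each other, and Hoxd1 (0.842), Hoxd3 (0.622) and Evx2 (0.0331) were low, with no overlap between neighbours. In the earlier Tbx3_WT, Hoxd8 (33.8 CPM per kb) was above Hoxd11 (19.3) and Hoxd13 (17.1), which overlapped. Hoxd4 (8.26), then Hoxd12 (4.02), then Hoxd1 (1.48) and Hoxd3 (1.41), and last Evx2 (0.0292) followed, and of these only Hoxd1 and Hoxd3 overlapped. The order depended in part on the length used. Hoxd13 was at place 3 in Hand2_WT and 5 in Tbx3_WT with the exon union, and at 5 in both with the longest transcript. Hoxd11 moved from 5 to 3 in Hand2_WT. With the longest transcript Hoxd3 was above Hoxd1 in both groups, and their ranges overlapped in Hand2_WT. With the exon union the Hand2_WT ranges of Hoxd1 and Hoxd3 were barely apart (0.707 against 0.704).

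**Figure D1:**
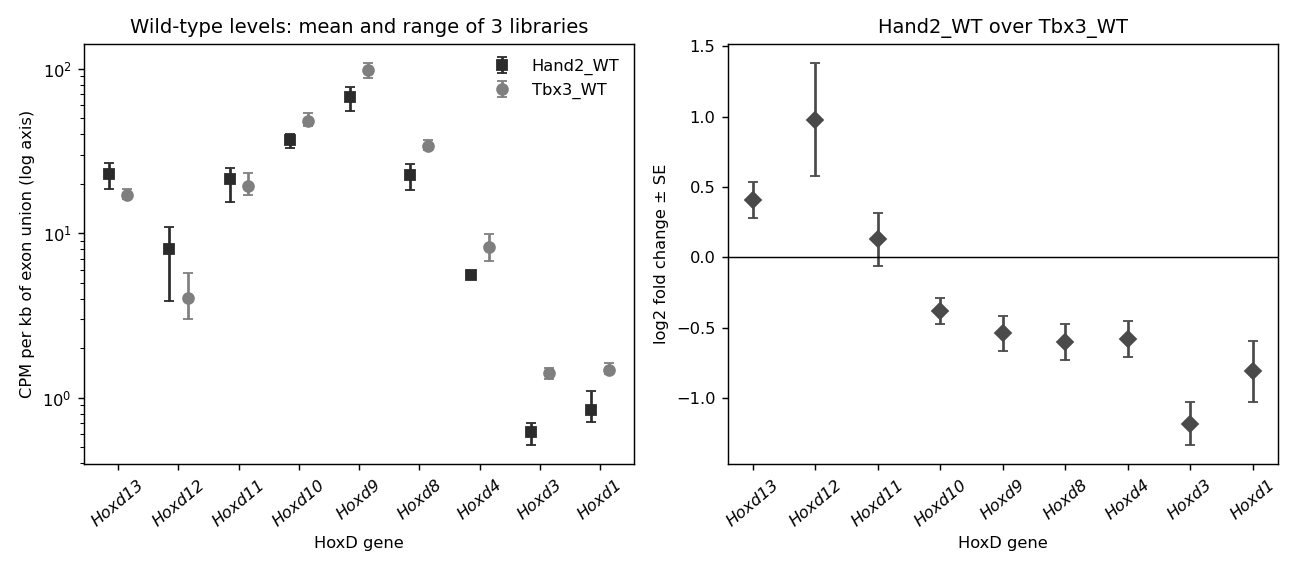
Levels of the 9 Hox members in both wild-type groups as CPM per kb of exon on a log axis (left, mean and range of 3 libraries) and the log2 fold change of Hand2_WT over Tbx3_WT with its SE (right). The fold changes run from 0.98 for Hoxd12 down to −1.18 for Hoxd3.

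Between the wild-type groups, Hoxd3 was the only member called, lower in Hand2_WT. Its level was 2.95, 2.72 and 2.15 CPM in Hand2_WT, against 6.36, 5.91 and 5.45 CPM in Tbx3_WT. All 3 later libraries were below all 3 earlier ones (log2 fold change −1.18, SE 0.155, adjusted p = 0.0248). A gene is called here at an adjusted p under 0.05 in edgeR's quasi-likelihood test with Benjamini-Hochberg adjustment over all genes tested, which is the test behind each adjusted p below unless another is named. Of 16339 genes tested, 0.753% were called in either direction and 0.398% lower, against 1 of 9 members tested. The Hoxd3 call ended (adjusted p 0.0743 to 0.0882) without Tbx3_WT replicate 1 or 2 or Hand2_WT replicate 2 or 3, and with embryo sex in the fit (0.0977). It also ended when Hoxd3, Hoxd4 and Gm28230 were summed, where the log2 fold change was −0.56 (adjusted p = 0.0758).

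The other members gave a slope along the cluster. Hoxd8, Hoxd9 and Hoxd10 were lower in every Hand2_WT library than in every Tbx3_WT library, with log2 fold changes of −0.60, −0.54 and −0.38, and so were Hoxd4 (−0.58) and Hoxd1 (−0.81). None of these 5 passed the test (adjusted p 0.0867 to 0.126). Hoxd13 was at 45.9, 58.1 and 65.8 CPM in Hand2_WT, against 41.2, 39.9 and 46.2 CPM in Tbx3_WT (0.41, adjusted p = 0.171), and 1 later library lay within the earlier range. Hoxd12 was at 9.72, 27.7 and 23.4 CPM in Hand2_WT, against 8.43, 7.61 and 14.5 CPM in Tbx3_WT (0.98, adjusted p = 0.258). Hoxd11 averaged 89.3 CPM in Hand2_WT and 81.4 CPM in Tbx3_WT (0.13, adjusted p = 0.761). Groups did not overlap for 6 of 9 members tested, and for 24.4% of all genes tested. DESeq2 called 6 members (Hoxd13, Hoxd10, Hoxd9, Hoxd8, Hoxd4 and Hoxd3), and 5.4% of all genes tested. The median over the 9 members was −0.54, and that over all genes was 0.00 after rounding. Stage, colony, the Prrx1-Cre allele and depth all change between these groups and cannot be told apart.

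Where Hand2 had been deleted, all 3 genes at the Hoxd13 end fell, and the rest of the cluster did not pass the test. Hoxd13, the last HoxD gene to come on in the limb and one needed for digits, was at 5.54, 10.1 and 7.63 CPM in Hand2_del, against 45.9, 58.1 and 65.8 CPM in Hand2_WT. Every mutant library was far below every control, and the mean was 13.7% of the control mean (log2 fold change −2.86, SE 0.231, adjusted p = 0.00174). Hoxd12, a 5′ gene that acts with its neighbours in the distal limb, was at 0.66, 1.18 and 0.90 CPM in Hand2_del, against 9.72, 27.7 and 23.4 CPM in Hand2_WT. It had the largest fall of the cluster, 22.1-fold (−4.47, SE 0.444, adjusted p = 0.00374). Hoxd11, needed with its HoxA counterpart for the forearm bones, was at 17.1, 16.5 and 13.6 CPM in Hand2_del, against 65.3, 98.3 and 104 CPM in Hand2_WT. Its mutant values lay close together, at 17.6% of the control mean (−2.51, SE 0.187, adjusted p = 0.00145).

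These 3 are 3 of the 9 members tested, while 10.5% of 17488 genes were called in either direction and 5.82% lower. All 3 remained called under each of the 14 alternatives tried, with log2 fold changes of −3.10 to −2.68 for Hoxd13, −4.80 to −4.18 for Hoxd12 and −2.69 to −2.38 for Hoxd11. Without Hand2_del replicate 1 the fold changes were −2.68, −4.29 and −2.57. In bulk RNA, fewer cells that express these genes and less RNA in each cell cannot be told apart.

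Beyond Hoxd11 the values were close to those of the controls. Hoxd10, the next of the genes related to fly Abdominal-B, was at 51.4, 61.7 and 52.1 CPM in Hand2_del, against 68.8, 60.0 and 72.7 CPM in Hand2_WT. Both groups overlapped (log2 fold change −0.29, adjusted p = 0.0842), and DESeq2 called it (adjusted p = 0.0191). Hoxd9 was at 141, 153 and 129 CPM in Hand2_del, against 166, 119 and 149 CPM in Hand2_WT (−0.04, SE 0.122, adjusted p = 0.859). Hoxd8, a gene of the trunk region, was at 50.0, 62.4 and 50.6 CPM in Hand2_del, against 72.4, 49.9 and 62.7 CPM in Hand2_WT (−0.18, adjusted p = 0.409). For both of these genes, all mutant values lay within the control range.

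At the other end of the cluster no member passed. Hoxd4, an early and anterior gene, was at 17.1, 20.1 and 19.6 CPM in Hand2_del, against 16.9, 15.9 and 16.5 CPM in Hand2_WT. Every mutant value was above every control (0.21, SE 0.0785, adjusted p = 0.123). Hoxd3, which patterns the upper neck vertebrae, was at 2.75, 5.52 and 3.90 CPM in Hand2_del, against 2.95, 2.72 and 2.15 CPM in Hand2_WT (0.64, adjusted p = 0.142), and 2 of 3 mutant libraries were above the controls. Hoxd1 was at 1.36, 1.82 and 1.29 CPM in Hand2_del, against 2.04, 1.32 and 1.35 CPM in Hand2_WT (−0.07, adjusted p = 0.861). Groups did not overlap for 4 of 9 members (Hoxd13, Hoxd12, Hoxd11 and Hoxd4), and for 38.0% of all genes tested. The median log2 fold change of the 9 was −0.18, against 0.01 over all genes.

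**Figure D2:**
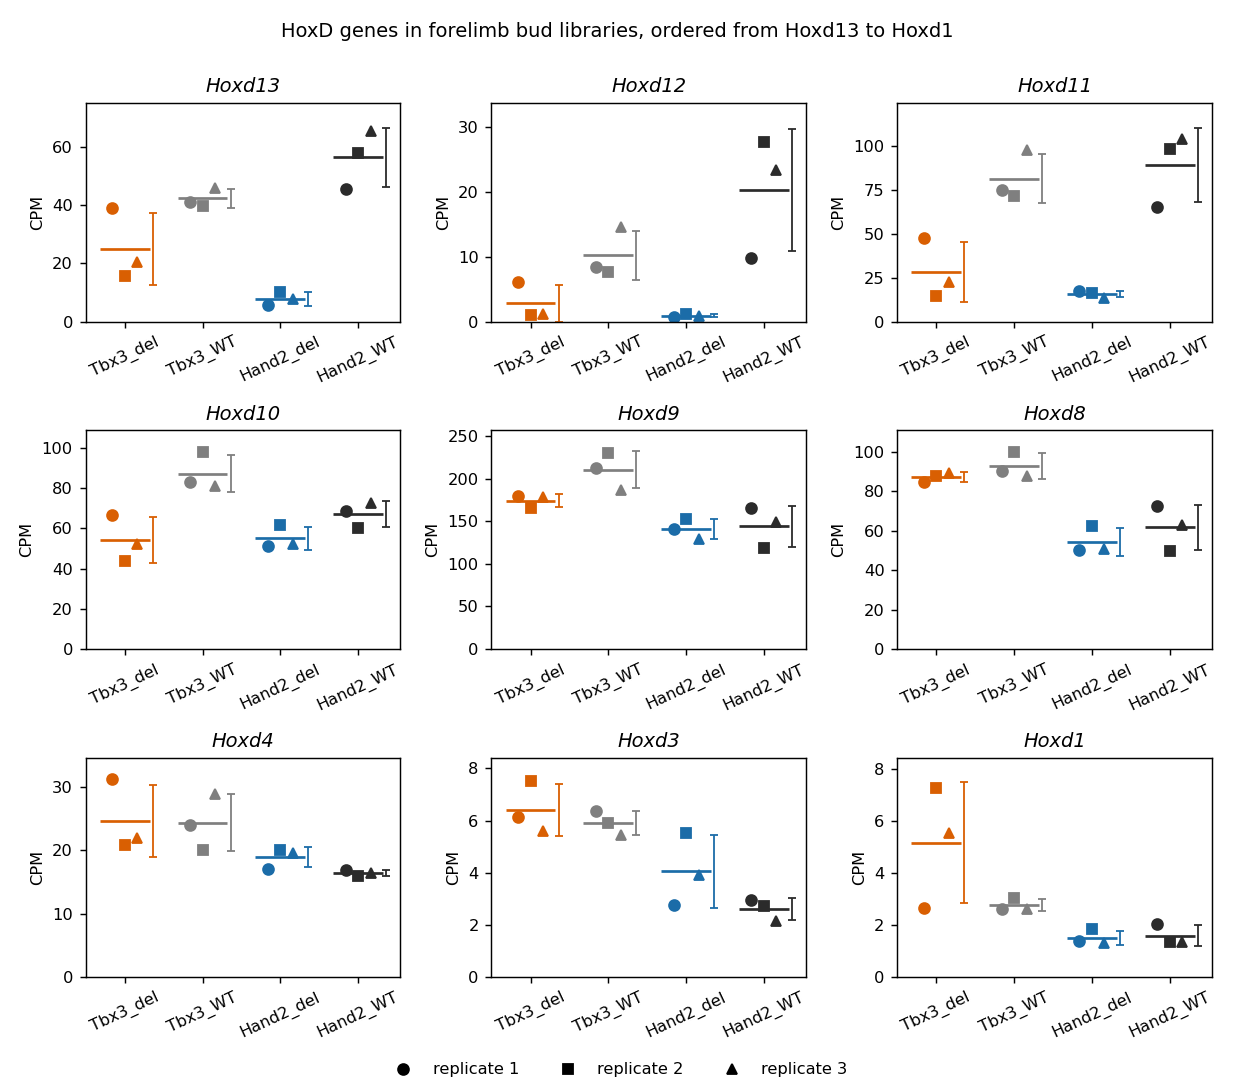
CPM of the 9 Hox members in each of the 12 libraries, from 0 up, with the replicate as the symbol, the group mean as a line and the SD as a bar. Hoxd13, Hoxd12 and Hoxd11 lie below all controls in Hand2_del, and Tbx3_del replicate 1 lies between its controls and the other Tbx3_del libraries for these genes.

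In buds labelled Tbx3_del, 0 of 9 members tested were called, with 1.01% of 15130 genes called in either direction. At an unadjusted p under 0.05 there were 6 of 9 (Hoxd13, Hoxd12, Hoxd11, Hoxd10 and Hoxd9 lower, Hoxd1 higher), where 14.3% of all genes were. DESeq2 called 2 members, Hoxd10 and Hoxd9, and 3.64% of all genes. Groups did not overlap for 5 of 9 (those same 5 from Hoxd13 to Hoxd9), and for 20.4% of all genes tested. The median of the 9 log2 fold changes was −0.27, and that of all genes was 0.00 after rounding.

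The spread within Tbx3_del was large at the Hoxd13 end. Hoxd13 was at 39.1, 15.6 and 20.6 CPM in Tbx3_del, against 41.2, 39.9 and 46.2 CPM in Tbx3_WT (log2 fold change −0.76, SE 0.294, adjusted p = 0.298). Replicate 1 was just under the lowest control, and replicates 2 and 3 were far below it. Hoxd12 was at 6.11, 1.05 and 1.23 CPM in Tbx3_del, against 8.43, 7.61 and 14.5 CPM in Tbx3_WT (−1.89, SE 0.637, adjusted p = 0.234). Hoxd11 was at 47.5, 14.6 and 22.3 CPM in Tbx3_del, against 75.0, 71.6 and 97.6 CPM in Tbx3_WT (−1.54, SE 0.377, adjusted p = 0.122). In both genes replicate 1 was again the highest of the mutants and below all controls. Hoxd10 was at 66.4, 43.9 and 52.2 CPM in Tbx3_del, against 82.9, 97.8 and 81.0 CPM in Tbx3_WT (−0.69, SE 0.146, adjusted p = 0.0881), with the same order of replicates.

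Without Tbx3_del replicate 1, 5 members were called, where 1.43% of all genes were. Hoxd13 (−1.23, adjusted p = 0.00954), Hoxd12 (−3.16, adjusted p = 0.0118), Hoxd11 (−2.15, adjusted p = 0.00779) and Hoxd10 (−0.86, adjusted p = 0.017) were lower, and Hoxd1 (1.22, adjusted p = 0.0375) was higher. That library was left out after its values were seen, and leaving out any other library of this comparison gave 0 calls among the members. Summed levels of a list of 12 hypoxia and glycolysis genes, of which 9 of 11 tested were called higher, moved with it: 4530 CPM in Tbx3_del replicate 1 and 5940 and 6380 CPM in replicates 2 and 3, against 3140 to 3560 CPM in Tbx3_WT. Body wall markers (8 genes, 0 of 7 tested called) summed to 99.0, 112 and 70.7 CPM in Tbx3_del, against 92.1, 47.9 and 53.5 CPM in Tbx3_WT. Hindlimb markers (6 genes, 2 of 5 called higher, Pitx1 and Hoxc9) summed to 27.6, 27.6 and 27.7 CPM in Tbx3_del, against 8.94, 9.23 and 10.7 CPM in Tbx3_WT. Macrophage markers (6 genes, 0 of 3 tested called) summed to 6.96, 5.54 and 6.81 CPM in Tbx3_del, against 1.63, 1.4 and 4.1 CPM in Tbx3_WT. Somite markers (0 of 7 tested called) summed to 106, 118 and 118 CPM in Tbx3_del, against 95.4, 96.4 and 91.1 CPM in Tbx3_WT, and epithelial markers (1 of 7 called, Cldn6, higher) to 265, 268 and 266 CPM, against 248, 241 and 264 CPM. The sums of these last 4 lists were higher in every Tbx3_del library than in every Tbx3_WT library. Those of the neuron, red cell, endothelial and apical ridge lists, not printed here, overlapped between the groups. The limb mesenchyme sums given above were lower in every Tbx3_del library than in every Tbx3_WT library (1 of 9 tested called, Tbx5, lower). Taken singly over all 3 replicates, 20.4% of all genes tested did not overlap, and 1.01% were called. No gene of the 6 printed lists was at 0 in all libraries of a group. The part of these lists in the HoxD values was not tested.

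The remaining members differed less. Hoxd9 was at 179, 165 and 178 CPM in Tbx3_del, against 212, 230 and 187 CPM in Tbx3_WT (−0.27, SE 0.0776, adjusted p = 0.175). Hoxd8 was at 84.5, 87.8 and 89.3 CPM in Tbx3_del, against 90.5, 100 and 87.7 CPM in Tbx3_WT (−0.09, adjusted p = 0.539). Hoxd9 was thus lower in every mutant library by a small margin, and Hoxd8 overlapped with its controls. Hoxd4 was at 31.3, 20.8 and 22.0 CPM in Tbx3_del, against 24.1, 20.0 and 29.0 CPM in Tbx3_WT (0.02, adjusted p = 0.976), and Hoxd3 at 6.15, 7.51 and 5.58 CPM in Tbx3_del, against 6.36, 5.91 and 5.45 CPM in Tbx3_WT (0.12, adjusted p = 0.766). The sign of both changed under some alternatives. Hoxd1, at the far end of the cluster, was at 2.65, 7.25 and 5.54 CPM in Tbx3_del, against 2.62, 3.02 and 2.61 CPM in Tbx3_WT (0.91, SE 0.333, adjusted p = 0.27). Here too replicate 1 was at the level of the controls.

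**Figure D3:**
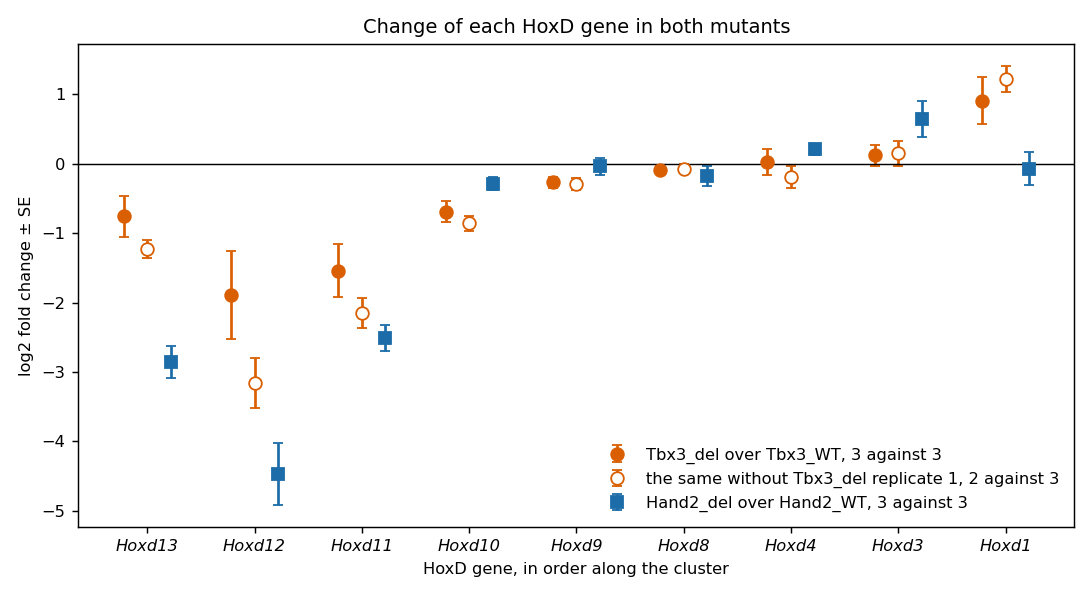
Log2 fold change with its SE for each Hox member, in order along the cluster, for Tbx3_del over Tbx3_WT with all 3 replicates (filled circles) and without replicate 1 of Tbx3_del (open circles), and for Hand2_del over Hand2_WT (squares). Values are lowest at Hoxd12 in both mutants, and from Hoxd9 to Hoxd4 they lie between −0.27 and 0.21 with all replicates.

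Both mutants were compared gene by gene through the difference of their effects, Hand2 minus Tbx3, in a fit of all 12 libraries. The log2 fold change of Hoxd13 was lower in the Hand2 comparison than in the Tbx3 comparison, with a difference of −2.10 (SE 0.418, adjusted p = 0.0335). It was the 1 member called of 9 tested, where 1.68% of 17360 genes were called in either direction and 0.893% on the lower side. The call ended with embryo sex in the fit (−2.07, adjusted p = 0.0596) and in 9 of 12 fits with 1 library left out, where the adjusted p was 0.0517 to 0.0787. The difference was −2.57 for Hoxd12 (SE 0.852, adjusted p = 0.16), −0.96 for Hoxd11 (SE 0.47, adjusted p = 0.32), −0.98 for Hoxd1 (adjusted p = 0.283) and 0.40 for Hoxd10 (adjusted p = 0.31). It lay between −0.09 for Hoxd8 and 0.52 for Hoxd3 in the other 4 members, with an adjusted p of 0.426 to 0.83. For these 8 genes a difference between the mutants was not shown. Stage, colony, depth and the kind of allele differ between the series along with the gene targeted, and cannot be told apart.

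Evx2, a homeobox gene beyond Hoxd13 that is active in the distal limb later on, was at the limit of detection. It had 3, 5 and 1 counts in Tbx3_del, against 0, 4 and 5 in Tbx3_WT, and 1, 6 and 3 counts in Hand2_del, against 5, 15 and 8 in Hand2_WT. It did not pass the filter on low counts and was not tested, so statements over members cover 9 genes. A count of 0 in Tbx3_WT replicate 1 allows up to 0.128 counts in 1e6 (3 counts). Without the filter the log2 fold change in Hand2_del was −1.41 (adjusted p = 0.273), so a difference was not detectable at this depth.

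The make-up of the cluster's RNA shifted with the Hoxd13 end. Together, Hoxd11, Hoxd12 and Hoxd13 gave 8.12%, 8.39% and 7.93% of all HoxD counts in Hand2_del, against 26.9%, 42.5% and 38.9% in Hand2_WT. Their share was 20.0%, 8.60% and 11.1% in Tbx3_del, against 22.9%, 20.7% and 28.7% in Tbx3_WT. The Hand2_del shares are close to each other and far below the lowest control, while those of Tbx3_del are all below the lowest control, replicate 1 by the smallest margin. Summed over the 10 members, the level was 299 ± 28.6 CPM in Hand2_del and 460 ± 33.7 CPM in Hand2_WT, and 407 ± 51.0 CPM in Tbx3_del and 557 ± 17.2 CPM in Tbx3_WT (SD, n = 3 each). Shares move together by construction, since a lower share of some members raises that of others.

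Ratios between neighbouring members were not tested, and the series differ in stage, colony, depth and allele. The ratio of Hoxd13 to Hoxd11 counts was 0.5 ± 0.154 in Hand2_del and 0.641 ± 0.0563 in Hand2_WT, with overlapping ranges. It was 0.936 ± 0.119 in Tbx3_del, with a range of 0.823 to 1.06, and 0.527 ± 0.0466 in Tbx3_WT, with a range of 0.473 to 0.557 (SD, n = 3 each), so that here replicate 1 did not stand among the controls. The ratio of Hoxd12 to Hoxd11 was 0.0587 ± 0.0177 in Hand2_del and 0.219 ± 0.0667 in Hand2_WT, and 0.0853 ± 0.0387 in Tbx3_del and 0.122 ± 0.0233 in Tbx3_WT. Its ranges did not overlap in the Hand2 series (0.0385 to 0.0716 in Hand2_del, 0.149 to 0.282 in Hand2_WT). They did overlap in the Tbx3 series (0.0552 to 0.129 in Tbx3_del, 0.106 to 0.149 in Tbx3_WT). Hoxd11 over Hoxd10 was 0.287 ± 0.0391 in Hand2_del and 1.34 ± 0.354 in Hand2_WT. In Tbx3_del it was 0.492 ± 0.199, against 0.949 ± 0.242 in Tbx3_WT; the ranges were 0.334 to 0.716 in Tbx3_del and 0.732 to 1.21 in Tbx3_WT.

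**Figure D4:**
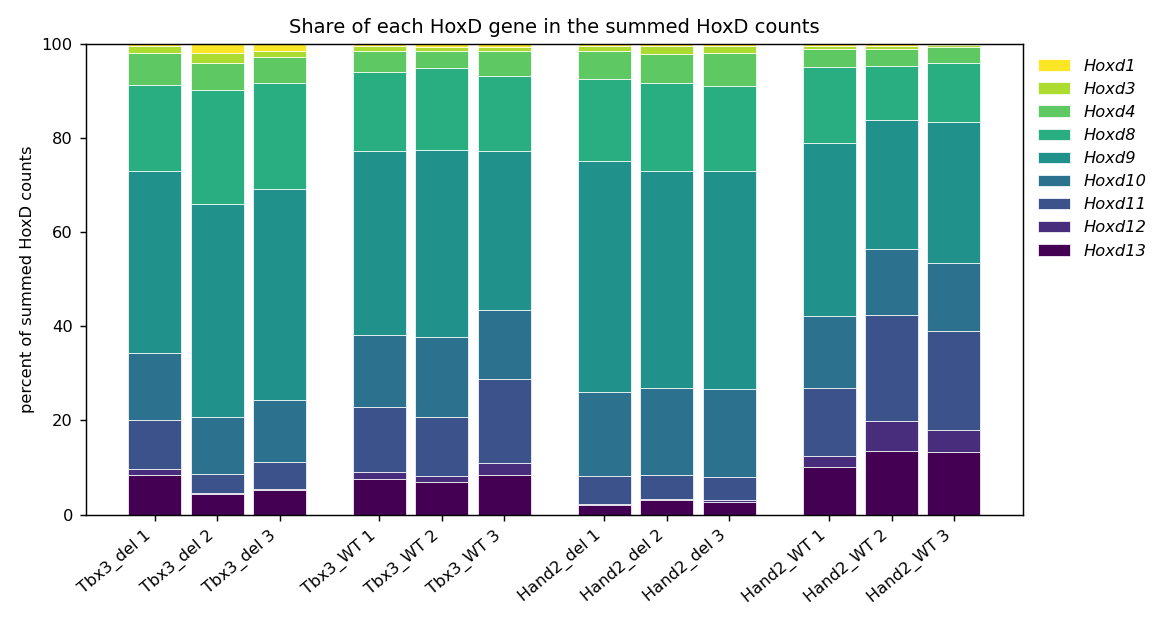
Share of each Hox member in the summed HoxD counts of each library, in percent, stacked from Hoxd13 at the bottom to Hoxd1 at the top. The bottom 3 bands sum to 7.93% to 8.39% in Hand2_del and to 26.9% to 42.5% in Hand2_WT.

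Over the 9 tested members, the place in the cluster (from Hoxd13 to Hoxd1) and the log2 fold change had a Spearman rho of 0.85 in the Hand2 comparison, 0.95 in the Tbx3 comparison and −0.95 between the wild-type groups (Hand2_WT over Tbx3_WT). The wild-type and mutant comparisons share control libraries, and neighbouring genes share reads in part, so these values are descriptions.

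Across the 12 libraries the 5′ genes varied together. The correlation of log2 CPM was 0.98 for Hoxd12 with Hoxd11, 0.94 for Hoxd13 with Hoxd12 and 0.93 for Hoxd13 with Hoxd11, and after removing the group means it was 0.91, 0.90 and 0.82. In the middle, Hoxd9 and Hoxd8 had 0.92, or 0.89 after removing the means. Hoxd10 stood between them, at 0.78 with Hoxd11 and 0.64 with Hoxd9. Hoxd1 went the other way from the 5′ genes within groups, at −0.89 with Hoxd11, −0.83 with Hoxd12 and −0.69 with Hoxd13. Hoxd4, also far from the 5′ genes, went with them within groups, at 0.71 with Hoxd11, 0.77 with Hoxd12 and 0.76 with Hoxd13. With Hoxd1 it had −0.62, so these values did not follow the place in the cluster. Tbx3_del replicate 1, high among its group for the 5′ genes and Hoxd4 and low for Hoxd1, is among these points. The points come from 2 series that differ in stage and depth, which libraries of 1 series share.

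Of the 10 other annotated genes between Evx2 and Hoxd1, 7 were tested and 1 was called, in the Hand2 comparison, where 10.5% of all genes were. This was Gm28309, a transcript of which 89.73% of exon bases are shared with Hoxd11 or Hoxd10. It was at 3.52, 3.96 and 3.31 CPM in Hand2_del, against 15.3, 24.5 and 23.7 CPM in Hand2_WT (−2.56, adjusted p = 0.00145), much like Hoxd11. Summing both genes gave −2.52 (adjusted p = 0.00138), against −2.51 for Hoxd11 alone. Haglr, a long noncoding RNA that starts beside Hoxd1 and runs on the other strand toward Hoxd3, was at 2.68, 2.46 and 2.44 CPM in Hand2_del, against 1.89, 1.62 and 1.83 CPM in Hand2_WT. It was above all controls and missed the threshold (0.50, adjusted p = 0.0525). Gm14396, Gm28793, Hoxd3os1, Gm28230 and Gm14424 were not called in any comparison, and Gm44463, Mir10b and Gm14426 did not pass the filter.

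Beyond the cluster, 36 genes lie within 1 Mb on either side, of which 13 were tested in the Hand2 comparison. The 2 called were Atf2 (−0.14, adjusted p = 0.0378), a stress-responsive transcription factor, and Atp5g3 (−0.23, adjusted p = 0.042), a subunit of the mitochondrial ATP synthase. Of all genes tested in this comparison, 10.5% were called. Lnpk, the next protein-coding gene beyond Evx2, which shares digit enhancers with 5′ Hoxd genes, was at a log2 fold change of −0.24 in the Hand2 comparison (adjusted p = 0.0551) and 0.02 in the Tbx3 comparison (adjusted p = 0.939). None of 11 genes tested was called in the Tbx3 comparison. Log2 fold changes of the 13 tested in the Hand2 comparison ran from −0.24 to 0.67, a smaller size than those of Hoxd11, Hoxd12 and Hoxd13.

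Among genes of the HoxA cluster, which holds the counterparts of the HoxD genes, 2 of 8 tested were called in the Hand2 comparison. Of all genes tested there, 10.5% were called. Hoxa11 was at 74.6, 67.1 and 65.5 CPM in Hand2_del, against 79.2, 96.6 and 106 CPM in Hand2_WT (−0.44, SE 0.106, adjusted p = 0.0449). This compares with −2.51 for Hoxd11. Hoxa3 was higher in Hand2_del (0.46, adjusted p = 0.0363). Hoxa13 was at 0.472, 0.228 and 0.265 CPM in Hand2_del, against 0.347, 3.20 and 1.80 CPM in Hand2_WT (−2.48, SE 0.747, adjusted p = 0.0749), with overlap. In the Tbx3 comparison 0 of 7 HoxA genes tested were called. Hoxa10 was at 92.4, 46.9 and 68.3 CPM in Tbx3_del, against 116, 105 and 131 CPM in Tbx3_WT (−0.76, adjusted p = 0.174), and Hoxa11 at 74.2, 48.2 and 66.1 CPM in Tbx3_del, against 87.1, 89.3 and 100 CPM in Tbx3_WT (−0.56, adjusted p = 0.148). Replicate 1 was the highest mutant library for these genes too.

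The SHH pathway moved beside the Hoxd13 end. In the Hand2 comparison 5 of 11 genes were called lower and 3 higher, where 10.5% of all genes were called in either direction. Shh, the ligand, was at 0.0337, 0.44 and 0.103 CPM in Hand2_del, against 4.18, 10.1 and 7.44 CPM in Hand2_WT (−5.20, SE 0.691, adjusted p = 0.0108). Ptch1 (−1.78, adjusted p = 0.00032), the SHH receptor, Gli1 (−2.27, adjusted p = 0.000686) and Hhip (−1.47, adjusted p = 0.0162), all textbook readouts of SHH signalling, fell as well. The co-receptors Gas1 (0.55, adjusted p = 0.0102), Cdon (0.56, adjusted p = 0.0171) and Boc (0.59, adjusted p = 0.0254) rose. Gli3, the source of the repressor, was at 309, 313 and 299 CPM in Hand2_del, against 262, 219 and 286 CPM in Hand2_WT (0.26, adjusted p = 0.105).

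In the Tbx3 comparison 1 of 11 was called, where 1.01% of all genes were. This was Ptch1, at 76.7, 63.2 and 66.3 CPM in Tbx3_del, against 103, 103 and 91.2 CPM in Tbx3_WT (−0.53, SE 0.0844, adjusted p = 0.0397). Shh was at 2.85, 1.40 and 1.12 CPM in Tbx3_del, against 5.20, 5.38 and 5.14 CPM in Tbx3_WT (−1.56, adjusted p = 0.0831). Gli1 was at 25.7, 12.1 and 15.3 CPM in Tbx3_del, against 26.0, 25.4 and 26.7 CPM in Tbx3_WT (−0.56, adjusted p = 0.349). In both genes Tbx3_del replicate 1 was the highest mutant library, as it was for Hoxd13, Hoxd12 and Hoxd11. The difference of effects was −3.63 for Shh (adjusted p = 0.0472) and −1.70 for Gli1 (adjusted p = 0.0244), beside −2.10 for Hoxd13.

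Gli1 was also the gene outside the cluster whose profile was most like that of Hoxd13. Over the 12 libraries the correlation of log2 CPM was 0.996, and 0.97 after removing the group means, among 10818 genes with a mean of at least 5 CPM. Shh and Hhip lay below that mean and were not ranked. The correlation of Ptch1 with Hoxd13 was 0.979. For Hoxd12 the most similar genes were Gm28309 (0.994), which shares exons with Hoxd11, then Hsd11b2 (0.951) and Frem1 (0.939). For Hoxd11 they were Gm28309 (0.990), Lmo2 (0.955) and Hsd11b2 (0.949). The likeness to Gli1 is a description over 4 groups that differ in stage and depth, and the highest of many values.

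Members further along had other neighbours. The most similar genes were Gldc (0.939), Coa6 and Slc35b1 for Hoxd10, and Atg3 (0.938), Prmt6 and Bckdk for Hoxd9. They were Tsfm (0.98), Htra2 and Srm for Hoxd8, and Rhbdf1 (0.898), Tmem184c and Psrc1 for Hoxd4. Tk2 (0.927), Metrn and Tpp1 were most like Hoxd3, and Atp6v0e (0.969), Esrra and Eif4ebp1 most like Hoxd1. No gene appeared for both a 5′ member (Hoxd13 to Hoxd11) and a member from Hoxd10 to Hoxd1. With only 3 of 10818 genes kept per member, the lack of a shared name does not separate members. Hoxd9 and Hoxd8, at a correlation of 0.92 with each other, shared none either.

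**Figure D5:**
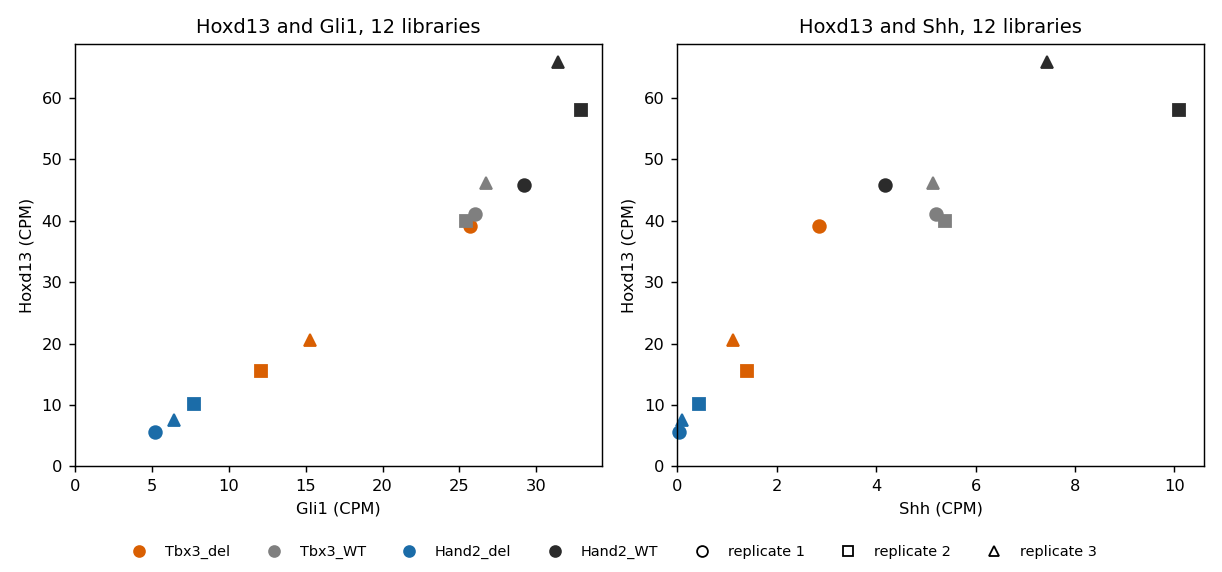
Hoxd13 against Gli1 (left) and against Shh (right) in CPM, with 1 point for each of the 12 libraries, colour for the group and symbol for the replicate. Hand2_del lies at the low end, Tbx3_del replicate 1 beside the Tbx3_WT libraries in the left plot, and Hand2_WT replicates 2 and 3 at the top, with Hand2_WT replicate 1 (45.9 CPM of Hoxd13) within the Hoxd13 range of Tbx3_WT.

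Other genes that act on or with HoxD were mostly not called. Over all genes tested, 10.5% were called in the Hand2 comparison and 1.01% in the Tbx3 comparison. The Hand2 counts of the Polycomb and retinoic acid lists below lie near that share, as does that of the regulators once Hand2 itself is set aside. Of 9 cofactors that bind DNA with Hox proteins, 3 rose in Hand2_del, among them Meis1 (0.46, adjusted p = 0.00793) and Pbx3 (0.16, adjusted p = 0.0443), and 0 of 9 were called in the Tbx3 comparison. Of 17 Polycomb genes and counterparts, which keep Hox genes silent or active, Rnf2 (−0.28, adjusted p = 0.0228) and Eed (−0.22, adjusted p = 0.0292) fell in Hand2_del and 0 were called in Tbx3_del. Among regulators of the cluster, 2 of 11 tested were called lower in Hand2_del. They were Hand2, the gene deleted there, whose call was set by the design, and Sall1 (−1.19, adjusted p = 0.00374). In Tbx3_del 0 of 11 were called. Hand2 was at 87.3, 85.0 and 62.5 CPM in Tbx3_del, against 107, 100 and 116 CPM in Tbx3_WT (−0.46, adjusted p = 0.153). Of retinoic acid genes, 1 of 13 rose in Hand2_del, and 0 of 12 were called in Tbx3_del.

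Markers of other cells were counted in the Hand2 comparison too. Body wall markers (2 of 7 tested called higher, Gata4 and Tbx18) summed to 95.4, 110 and 95.7 CPM in Hand2_del, against 64.7, 56.3 and 50.9 CPM in Hand2_WT. Hindlimb markers (3 of 5 called higher, Isl1, Hoxc9 and Pitx1) summed to 15.1, 13.8 and 13.9 CPM in Hand2_del, against 8.56, 8.92 and 8.80 CPM in Hand2_WT. Apical ridge markers (2 of 8 called lower, Fgf8 and Fgf4) summed to 122, 111 and 114 CPM in Hand2_del, against 156, 142 and 144 CPM in Hand2_WT. Macrophage markers (1 of 6 called higher, C1qb) summed to 12.7, 8.44 and 6.6 CPM in Hand2_del, against 3.66, 5.54 and 3.8 CPM in Hand2_WT. Endothelial markers (1 of 6 called higher, Cdh5) summed to 268, 289 and 296 CPM in Hand2_del, against 253, 254 and 253 CPM in Hand2_WT, and epithelial markers (0 of 7 called) to 250, 232 and 253 CPM, against 255, 283 and 257 CPM. The sums of these 6 lists did not overlap between the groups. Those of the somite, neuron, red cell and hypoxia lists, not printed here, did overlap. The limb mesenchyme sums given above were higher in every Hand2_del library than in every Hand2_WT library (4 of 10 tested called higher and 1 lower). Taken singly, 38.0% of all genes tested did not overlap, and 10.5% were called. No marker of the 6 printed lists was at 0 in all libraries of a group. The part of these lists in the HoxD values was not tested.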

How the data were processed

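RNA of 12 libraries was measured, 3 in each of 4 groups taken from the labels. The authors deposited RSEM expected counts, 1 value for each Ensembl gene in each library and without normalisation. The submitters' processing notes name FastQC 0.11.4, STAR 2.5.2, RSEM 1.3.0 and mm10. Reads were single-end, 85 bp, per the labels' protocols, and the sources used here give neither the strand setting nor the annotation release. RSEM shares out reads that fit several genes, so overlapping genes can exchange counts. Between 12.5% and 16.2% of values per library were not whole, and all were rounded.

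Each comparison was fitted in edgeR 4.0.16 (R 4.3.3): TMM scaling, a low-count filter (filterByExpr, counts of 10 and totals of 15 as minima) and quasi-likelihood F tests. P-values were adjusted by Benjamini-Hochberg across every gene tested, and genes were called at an adjusted p under 0.05. The difference of effects used all 12 libraries. SE is the size of the log2 fold change over the root of its F value (prior count 0.125). CPM come from TMM over all 12 libraries, log2 CPM from a prior count of 2, and CPM per kb from the exon union in GENCODE M21. The scripts were tested on simulated data.

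Named are the 10 members, all genes between them, called genes within 1 Mb, the 3 most similar genes per member, and up to 4 called genes per list, plus Shh, Gli3, Hand2, Tbx3, Hoxa11 and Hoxa13. Members and lists were chosen with earlier results of these data known. Hoxa10, Lnpk, Haglr and genes shown beyond this rule were picked after their values were seen. Some genes that the rule would name are not reported here. Promoters and motifs come from RefSeq (GRCm38.p6), and protein sequences were not used here. Alternatives were other scaling, DESeq2 1.42.0, no filter, a replicate block, embryo sex, 1 shared fit, thinning of the Hand2 series, each library left out, and, chosen after seeing the data, overlapping genes summed. Totals of 23.3 to 68.6 M counts leave small counting errors except for genes with few counts. Among these are Evx2, Shh in Hand2_del, Hoxa13 and, to a lesser degree, Hoxd12 in the mutants. Limits for counts of 0 cover counting error only.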

Additional observations from a re-analysis of the deposited data

Results flagged for a closer look

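Hoxd13 differed between both mutant comparisons in the main test of the difference itself, but was not called under most alternatives. It was at 5.54, 10.1 and 7.63 CPM in Hand2_del, against 45.9, 58.1 and 65.8 CPM in Hand2_WT, and at 39.1, 15.6 and 20.6 CPM in Tbx3_del, against 41.2, 39.9 and 46.2 CPM in Tbx3_WT. The log2 fold change in the Hand2 comparison minus that in the Tbx3 comparison was −2.10 (SE 0.418, edgeR adjusted p = 0.0335). All mutant libraries were below all controls in both series, in the Tbx3 series by 39.1 against 39.9 CPM at the closest. Groups did not overlap for 38.0% of all genes tested in the Hand2 comparison and for 20.4% in the Tbx3 comparison. Over the 19 alternatives the difference was −2.35 to −1.63, with an adjusted p of 0.00166 to 0.0787, and 8 of them kept the call. It ended with embryo sex in the fit (adjusted p = 0.0596) and with the replicate block (adjusted p = 0.0643). Of 12 fits with 1 library left out, 3 kept it. Among these was the fit without Tbx3_del replicate 1, where the adjusted p was 0.0253 and the difference was −1.63. Stage, colony, depth and allele differ between the series together with the gene targeted.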

How the results depend on the processing

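Hoxd11, Hoxd12 and Hoxd13 kept their direction and call in the Hand2 comparison under all 14 alternatives run. In the Tbx3 comparison 0 members were called, against 2 with DESeq2, 3 without the low-count filter, 2 with all 12 libraries in 1 fit and 0 to 5 with 1 library left out. Between the wild-type groups 1 was called, against 6 with DESeq2, 4 without the filter, 3 with all 12 libraries in 1 fit, 0 with embryo sex, 0 with overlapping genes summed and 0 to 1 with 1 library left out. For the difference of effects 1 was called, against 0 with embryo sex and 0 to 1 with 1 library left out.

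Counts over all genes moved more. The Tbx3 comparison called 153 genes, against 551 with DESeq2, 504 without the filter, 22 with embryo sex, 422 with all 12 libraries in 1 fit and 23 to 220 with 1 library left out. The Hand2 comparison called 1836, against 3475 with DESeq2, 526 with embryo sex, 1186 when thinned to the depth of the Tbx3 series and 218 to 2223 with 1 library left out. The wild-type comparison called 123, against 883 with DESeq2, 326 without the filter, 37 with embryo sex, 360 in 1 fit and 36 to 165 with 1 library left out. The difference called 292, against 859 with DESeq2 and 123 to 336 with 1 library left out. The cause of these shifts was not tested.

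For libraries of the same replicate number, the correlation of deviations was −0.009 to 0.034 in the Tbx3 comparison. It was −0.127 to 0.036 in the Hand2 comparison and −0.003 to 0.142 between the wild types. For libraries of unlike number it was −0.094 to 0.075, −0.166 to 0.146 and −0.097 to 0.072, in the same order. Litters and days of dissection are not given, so these values cannot tell whether libraries of the same number share them. With the replicate block, 87 genes were called in the Tbx3 comparison, 161 in the Hand2 comparison, 31 between the wild types and 69 for the difference. Under this block 0 members were called between the wild types and 0 for the difference.

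Signs changed for values near 0. In the Tbx3 comparison Hoxd4 was at −0.15 with embryo sex, −0.11 without Tbx3_WT replicate 2 and −0.19 without Tbx3_del replicate 1 (−0.19 to 0.17 over libraries left out), and Hoxd3 at −0.08 with embryo sex and −0.0057 without Tbx3_del replicate 2 (to 0.21). In the Hand2 comparison Hoxd9 was at 0.07 and 0.02 without Hand2_WT replicate 1 and Hand2_del replicate 3 (−0.16 to 0.07), and Hoxd1 at 0.05 with embryo sex, 0.16 and 0.02 without those same libraries (−0.24 to 0.16) and 0.18 when thinned. Between the wild types Hoxd11 was at −0.0023 with embryo sex and −0.00016 without Hand2_WT replicate 3 (to 0.31). The difference for Hoxd8 was 0.04 without Hand2_WT replicate 1 (−0.23 to 0.04).

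By the longest transcript in place of the exon union, 6 of 10 members kept their rank in Hand2_WT. Per kb, the share of Hoxd11 to Hoxd13 averaged 5.48% in Hand2_del, against 8.15% by counts, and 17.5% in Tbx3_WT, against 24.1% by counts. Ranked on deviations from group means, 4 of 27 most similar genes were shared with those named. Evx2 was too low to be tested at this depth, and with the Hand2 series thinned the difference of effects for Hoxd1 was −0.73, against −0.98.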
